A study of Homo sapiens with 10 samples.

Results

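Chromatin immunoprecipitation with sequencing (ChIP-seq) in Kelly cells, a MYCN-amplified neuroblastoma line of adrenergic state, gave 2452 genomic regions that carried tagged RCOR2, lay away from protein-coding gene ends and had no called peak of the histone demethylase LSD1. They were taken from the deposited list named RCOR2-low, which holds 24637 of the 31310 regions in the 2 lists of the series. A region was kept where it lay farther than 2 kb from either end of every RefSeq protein-coding gene (GRCh38), overlapped a peak in both libraries of induced FLAG-tagged RCOR2 and overlapped no peak in either LSD1 library. Of the RCOR2-low regions, 19281 met the distance condition, and these are called distal here. The 2452 regions were therefore chosen by the called peaks of induced RCOR2 and of LSD1, and values of these proteins are described without a test.

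The series holds 10 libraries in 5 groups of 2. Tagged RCOR2 was pulled down with an anti-FLAG antibody from Kelly cells labelled RCOR2-3xF that were given 2 µg/mL doxycycline, and the same antibody was used on untreated cells of that line as the background. RCOR1 and RCOR3 were pulled down with antibodies to the proteins themselves from untreated Kelly cells, and LSD1 from an untreated Kelly derivative whose label names an shRNA against RUNX1T1; a time of 48 h is given for all 10 libraries. The labels do not say whether the 2 libraries of a group came from separate cultures, nor how the RCOR2 construct or the derivative line was made, so the spread between libraries may be technical. Libraries are numbered here as in the labels; in 6 of the 10 files the peak names carry another replicate name, 3 for RCOR1 and RCOR3 library 2, and the letters B and C for induced and C and D for uninduced FLAG. LSD1 and RCOR2 were mapped in different derivatives of the line, and a difference between these cells cannot be told apart from a difference between the proteins.

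RCOR1, RCOR2 and RCOR3 are the CoREST corepressors, scaffold proteins that bind LSD1 and class I histone deacetylases. In the textbook complex, the CoREST protein holds LSD1 on nucleosomes, where it removes methyl groups from lysine 4 of histone H3, a mark of promoters and enhancers, and the zinc finger protein REST brings the complex to neuronal genes. Adrenergic neuroblastoma cells resemble sympathetic precursors and depend on a set of transcription factors that includes HAND2 and GATA3.

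Regions were ranked for RCOR2 by the lower of their 2 percentile ranks among induced peaks, and the first, at 97.7, lay inside BBC3, which encodes the pro-apoptotic protein PUMA, and held a pair of overlapping microRNA hairpins on opposite strands. It covered chr19:47225960-47228869 (GRCh38) and had a fold enrichment over local background of 32.1 in library 1 and 56.9 in library 2 of induced RCOR2, against 5.44 and 4.72 in uninduced cells; single libraries had higher values elsewhere. The hairpins, from RefSeq (GRCh38.p14), are shown 5′ to 3′ with the annotated mature arms in capitals, because several of the strongest regions lie on such hairpins:

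MIR3190 (+ strand): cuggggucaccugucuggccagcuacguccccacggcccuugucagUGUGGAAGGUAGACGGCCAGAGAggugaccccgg

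MIR3191 (− strand): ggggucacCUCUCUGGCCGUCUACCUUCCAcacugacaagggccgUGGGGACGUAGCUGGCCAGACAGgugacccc

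MIR3180-3 (− strand): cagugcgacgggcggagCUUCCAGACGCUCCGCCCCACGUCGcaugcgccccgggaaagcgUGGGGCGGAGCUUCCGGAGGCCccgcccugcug

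MIR9-1 (− strand): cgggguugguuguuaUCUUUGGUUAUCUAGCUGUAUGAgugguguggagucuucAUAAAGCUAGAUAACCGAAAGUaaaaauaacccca

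The mature microRNAs of these 4 hairpins start with different seeds, given here in capitals at bases 2 to 8:

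hsa-miR-3190-3p: uGUGGAAGguagacggccagaga

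hsa-miR-3191-5p: cUCUCUGGccgucuaccuucca

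hsa-miR-3191-3p: uGGGGACGuagcuggccagacag

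hsa-miR-3180-5p: cUUCCAGAcgcuccgccccacgucg

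hsa-miR-3180-3p: uGGGGCGGagcuuccggaggcc

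hsa-miR-9-5p: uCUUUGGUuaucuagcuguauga

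hsa-miR-9-3p: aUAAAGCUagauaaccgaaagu

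Over all hairpins that lie whole inside one of the 2452 regions, 22 mature microRNAs carried 22 distinct seeds, so no seed was shared.

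Other strong regions held starts of genes. The RefSeq promoter windows below run from 250 bases before to 50 bases after an annotated start, and capitals mark GGGCGG or its reverse complement, the GC box bound by Sp and Krüppel-like factors. LIN28B-AS1 and LIN28B start in opposite directions inside the same region:

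LIN28B-AS1 (chr6:104940478-104940777, − strand): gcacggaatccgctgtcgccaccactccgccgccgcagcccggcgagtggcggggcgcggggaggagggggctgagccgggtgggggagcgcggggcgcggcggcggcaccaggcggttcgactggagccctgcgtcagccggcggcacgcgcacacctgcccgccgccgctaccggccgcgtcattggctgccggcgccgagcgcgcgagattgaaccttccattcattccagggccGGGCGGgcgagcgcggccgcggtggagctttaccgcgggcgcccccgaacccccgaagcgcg

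LIN28B (chr6:104940715-104941014, + strand): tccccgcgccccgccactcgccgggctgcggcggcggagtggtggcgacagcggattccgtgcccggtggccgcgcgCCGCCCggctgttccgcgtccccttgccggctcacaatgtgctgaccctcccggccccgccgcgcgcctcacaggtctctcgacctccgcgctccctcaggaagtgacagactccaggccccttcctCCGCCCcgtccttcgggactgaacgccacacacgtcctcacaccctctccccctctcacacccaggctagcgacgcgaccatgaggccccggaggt

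SV2C-AS1 (chr5:76083368-76083667, − strand): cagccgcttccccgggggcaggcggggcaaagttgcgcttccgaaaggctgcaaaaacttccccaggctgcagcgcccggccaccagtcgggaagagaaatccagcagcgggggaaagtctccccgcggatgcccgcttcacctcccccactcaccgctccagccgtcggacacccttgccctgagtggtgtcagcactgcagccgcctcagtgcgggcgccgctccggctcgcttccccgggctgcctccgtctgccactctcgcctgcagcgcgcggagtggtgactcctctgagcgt

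LIG4 (chr13:108215256-108215555, − strand): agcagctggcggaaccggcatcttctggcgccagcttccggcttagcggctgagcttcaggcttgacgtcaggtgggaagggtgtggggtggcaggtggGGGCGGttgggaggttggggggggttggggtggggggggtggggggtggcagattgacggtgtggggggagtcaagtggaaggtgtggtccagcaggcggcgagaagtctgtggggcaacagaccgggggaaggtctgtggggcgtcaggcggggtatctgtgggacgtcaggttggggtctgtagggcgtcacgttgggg

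The SV2C-AS1 window holds no GC box, the LIN28B-AS1 and LIG4 windows hold 1 each and the LIN28B window holds 2. The LIN28B and LIG4 windows and the MIR9-1 hairpin were chosen after their values were seen. GC content was 78.0% in the LIN28B-AS1 window, 73.0% in the LIN28B window, 69.3% in the SV2C-AS1 window and 67.3% in the LIG4 window.

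Of the 10 regions with the highest RCOR2 rank, 4 held a microRNA hairpin and a further 4 a promoter window. The other two lay inside SSBP4, of the single-stranded DNA-binding protein family, and near SLC27A3, a fatty acid transporter. At SSBP4, chr19:18416251-18420477, RCOR2 had fold enrichments of 23.9 and 62.7, and every other library outside LSD1 had a peak, between 3.84 and 8.95. Near SLC27A3, chr1:153783191-153784021, RCOR2 had 18.8 and 41.5, RCOR1 6.37 and 7.35, RCOR3 5.49 and 5.97, and uninduced FLAG no peak. At the lncRNA LOC105371749, chr17:36482698-36483433, RCOR2 had 21.0 and 38.3 and no other library had a peak.

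The RCOR2 signal that chose the regions was as follows. Over the 2452 regions, fold enrichment had a median of 8.30 in library 1 (quartiles 6.09 and 11.4, highest 45.9) and of 7.98 in library 2 (quartiles 5.44 and 15.7, highest 73.7). Across the regions the 2 libraries ranked them alike in part, with a Spearman rank correlation of 0.572 as a description over regions that share their libraries. The 2014 distal RCOR2-low regions that carried both RCOR2 and LSD1 had lower medians, 6.64 and 5.97. The regions had a median width of 755 bp (quartiles 544 and 1054 bp), against 972 bp for those with LSD1. Their bounds were those of merged RCOR1 and induced RCOR2 peaks in 2350 cases (95.8%), so RCOR1 also took part in drawing the list.

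Regions just past the distance limit included ones 2018 bp from an end of CRMP1 and 2029 bp from RSRP1. The 3 just inside it, which were left out, lay 1999 bp from TMEM178B, 1991 bp from ADAMTS1 and 1983 bp from ASIC4. The median distance of the 2452 regions to a gene end was 15031.5 bp, against 40816.5 bp for the regions with LSD1.

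RCOR3 was found on fewer of the regions than where both RCOR2 and LSD1 were called. RCOR3 peaks overlapped 701 of the 2452 regions in library 1 (28.6%, 95% Wilson interval 26.8 to 30.4) and 627 in library 2 (25.6%, interval 23.9 to 27.3). Of all distal RCOR2-low regions, 35.4% had an RCOR3 peak in library 1 and 29.9% in library 2. In the regions with RCOR2 and LSD1 the shares were 79.5% and 74.9%. The difference, no LSD1 minus LSD1, was −51.0 percentage points in library 1 and −49.4 in library 2, with a mean of −50.2 ± 1.13 (SD, n = 2 libraries). With peaks above each library's median score only, 1483 regions qualified, RCOR3 averaged 15.8% and the mean difference was −65.1. Both libraries showed the same direction, and the exact two-sided sign-flip test gave p = 0.5, the smallest that 2 libraries allow. Against the 7662 distal RCOR2-low regions with LSD1 and no RCOR2, where RCOR3 was on 35.8% and 26.2%, the difference was −7.24 and −0.636 percentage points (mean −3.94 ± 4.67, SD, exact sign-flip p = 0.5, n = 2), smaller than the spread between libraries. Those regions had a median width of 415 bp. Intervals cover counting error over regions only, and the read depth behind the peak lists is unknown.

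The RCOR3 difference from the regions with RCOR2 and LSD1 had the same sign in every width band and was smallest below 500 bp. In that band, with 463 regions without LSD1 and 187 with it, RCOR3 was found on 13.6% and 9.94% without LSD1, against 25.7% and 23% with it. Among regions of 500 to 1000 bp, RCOR3 was found on 26.9% and 23.1% of those without LSD1 (libraries 1 and 2), against 77.3% and 70.9% of those with LSD1. Among regions of 1000 to 2000 bp the shares were 40.4% and 38.7% without LSD1, and 91.1% and 87.4% with it; from 2000 bp up they were 51.3% and 55.1% over 78 regions without LSD1, and 98.4% and 97.6% over 123 with it. Regions with LSD1 called in 1 library only, 343 in number, lay between, at 53.9% and 44.3%. Where RCOR3 was called on the 2452 regions its peaks were also lower, with median fold enrichments of 4.65 and 5.47, against 6.35 and 7.46 on the regions with LSD1.

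RCOR3 shares at gene ends did not differ from these beyond the spread between libraries. The 3001 RCOR2-low regions that met the same RCOR2 and LSD1 conditions but lay within 2 kb of a gene end had RCOR3 shares of 29.3% and 24.8%. The difference, distal minus gene-end, averaged 0.0390 percentage points and had opposite signs in the 2 libraries (exact sign-flip p = 1, n = 2). Against the 2816 distal RCOR2-low regions with neither RCOR2 nor LSD1, where RCOR3 was found on 10.9% and 10.6%, the 2452 regions stood 16.3 ± 1.91 percentage points higher (SD, n = 2, exact sign-flip p = 0.5). Those regions with neither protein had a median width of 296 bp.

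RCOR1 was called on more of the regions than RCOR3, but its peaks took part in drawing the list. All 7662 distal RCOR2-low regions with LSD1 and no RCOR2, and all 2816 with neither, had an RCOR1 peak in at least 1 library. The RCOR1 shares and their background are thus partly fixed by how the list was made, and are given as a description with no test. RCOR1 peaks overlapped 2098 regions in library 1 (85.6%, against 92.6% of all distal RCOR2-low regions) and 858 in library 2 (35%, against 31.1%). The 2 RCOR1 libraries differ in their number of peaks, 49991 and 18827, and the shares differ with them. On the regions with LSD1, RCOR1 was found on 98.5% and 77.8%, so the difference was −12.9 and −42.8 percentage points (mean −27.9, n = 2). Within the 2452 regions the mean RCOR1 share was 60.3 ± 35.8% and the mean RCOR3 share 27.1 ± 2.13% (SD, n = 2 each). This difference of 33.2 percentage points was smaller than the spread between the RCOR1 libraries.

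Most regions with an RCOR3 peak also had an RCOR1 peak, as did most of all distal RCOR2-low regions. Of the 985 regions with RCOR3 in either library (40.2%, against 43.2% of all distal RCOR2-low regions), 967 had RCOR1 in at least 1 library (39.4% of the 2452, against 43%) and 18 did not (0.734%, against 0.202%). Regions with RCOR3 in both libraries numbered 343 (14%, against 22.1%). No region had RCOR3 in both libraries and RCOR1 in neither (0.0156% of all distal RCOR2-low regions); a count of 0, taken as up to 3 counts, allows a share of up to 0.122%. RCOR1 was called in either library at 2132 regions (86.9%, against 93.3%) and in both at 824 (33.6%, against 30.5%). RCOR1 and RCOR3 were each called in both libraries at 263 regions (10.7%, against 18.1%), and neither was called in any library at 302 (12.3%, against 6.53%).

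**Figure D1:**
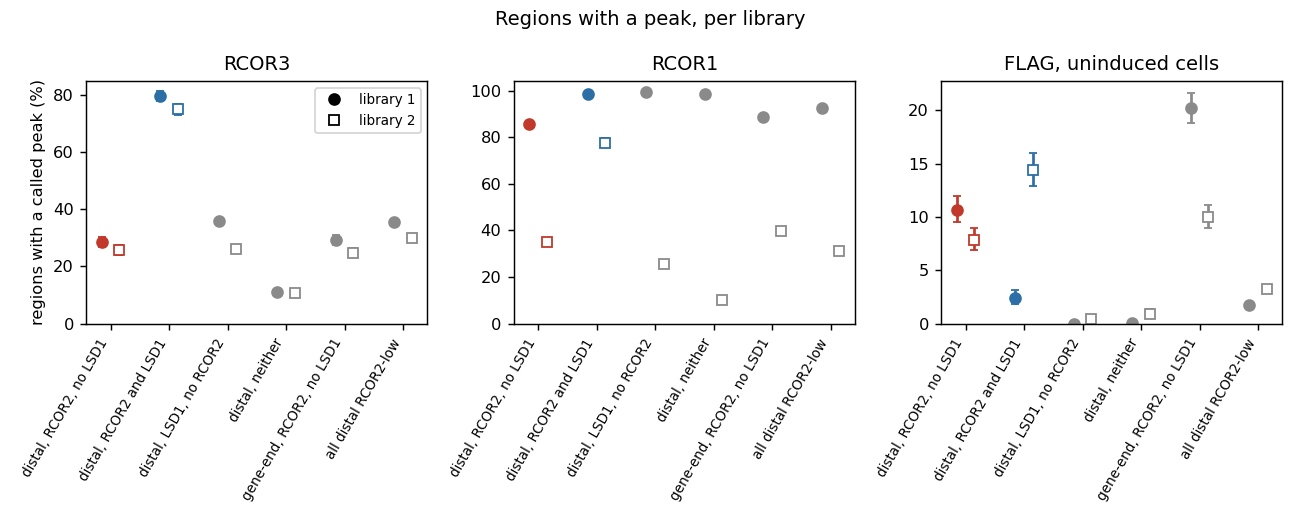
Share of regions with a called peak (y axis, %) of RCOR3, RCOR1 and FLAG in uninduced cells, for 6 sets of regions (x axis); filled circles are library 1, open squares library 2, bars 95% Wilson intervals. The distal regions with RCOR2 and no LSD1 stand at 28.6% and 25.6% for RCOR3, against 79.5% and 74.9% for those with LSD1.

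**Figure D2:**
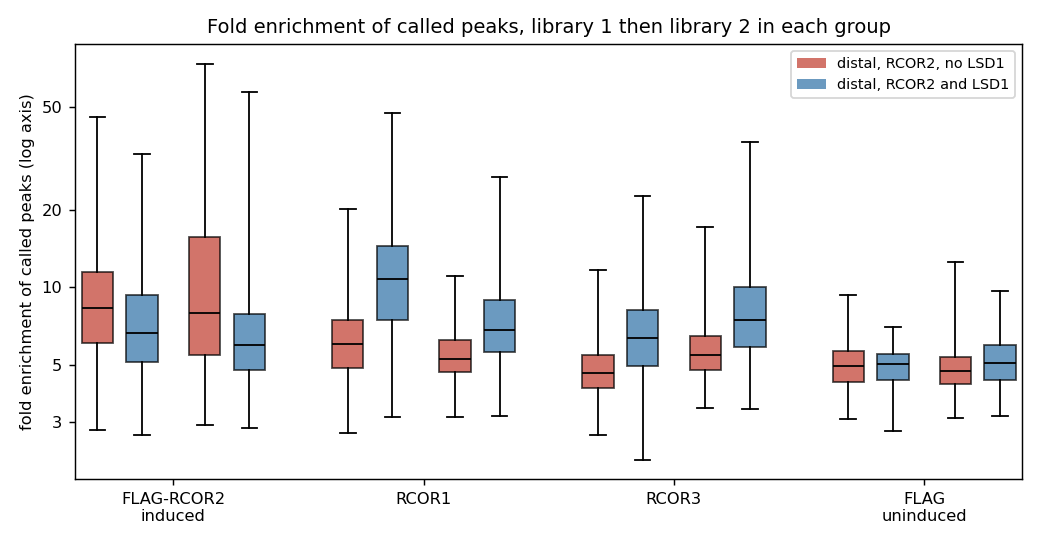
Fold enrichment of called peaks (log axis) in the regions without LSD1 and with LSD1, for each library of 4 groups; boxes are quartiles with the median, whiskers the lowest and highest value. Induced RCOR2 is higher without LSD1 (medians 8.30 and 7.98, against 6.64 and 5.97), and RCOR1 and RCOR3 are lower.

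FLAG signal from uninduced cells marked part of the regions. A peak was called at 262 regions in uninduced library 1 (10.7%, against 1.74% of all distal RCOR2-low regions) and at 193 in library 2 (7.87%, against 3.26%). Either library marked 412 (16.8%, against 4.68%), and both marked 43 (1.75%, against 0.322%). Of all distal RCOR2-low regions, 23.2% had an induced peak in both libraries, which the regions studied here all had. Among sets sharing that demand, either uninduced library marked 15.8% of the distal regions with LSD1 and 26.8% of the gene-end regions without LSD1. Both marked 0.943% and 3.40% of them. A higher share than in all distal RCOR2-low regions was thus not particular to the regions studied here. Compared with the regions with LSD1, at 2.38% and 14.4%, the 2 libraries went opposite ways, by 8.30 and −6.53 percentage points (mean 0.887 ± 10.5, SD, exact sign-flip p = 1, n = 2). The uninduced share averaged 9.28 ± 1.99% (SD, n = 2), 4.28% with peaks above each library's median score and 5.77% with RCOR2 peaks of either induced library. The uninduced peaks were low, with medians of 4.93 and 4.72. The labels do not say whether tagged RCOR2 is made without doxycycline, and the part of antibody background in the 412 regions was not tested; 2040 regions had no uninduced peak.

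The 5 regions with the highest uninduced FLAG signal in both libraries lay in RASA3, a GTPase-activating protein for Ras, in CHD2, a chromatin remodeller, in KIF17, a kinesin motor, in MROH1 and in RXRA, a nuclear receptor. In the RASA3 region, chr13:114119450-114121027, induced RCOR2 had fold enrichments of 26.1 and 20, against 6.71 and 7.55 in uninduced cells. In the CHD2 region, chr15:92903959-92905273, which holds MIR3175, the values were 17.7 and 40.9 in induced cells, against 6.22 and 6.13 in uninduced cells. Induced values were the higher in both, but induced peaks chose the regions and read depth is unknown, so induction was not tested by these values.

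Uninduced peaks were commoner where RCOR2 was strong. With the regions split into 3 equal classes (weak, middle and strong) by their lower percentile rank among induced peaks, uninduced library 1 marked 2.94%, 10.0% and 19.1% from the weak to the strong class, and library 2 marked 5.63%, 7.22% and 10.8%. RCOR3 shares were 26.4%, 31.1% and 28.2% in library 1, with no steady order, and 20.7%, 25.6% and 30.4% in library 2, highest in the strong class. The median width also differed between the classes, at 613, 781 and 917.5 bp.

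**Figure D3:**
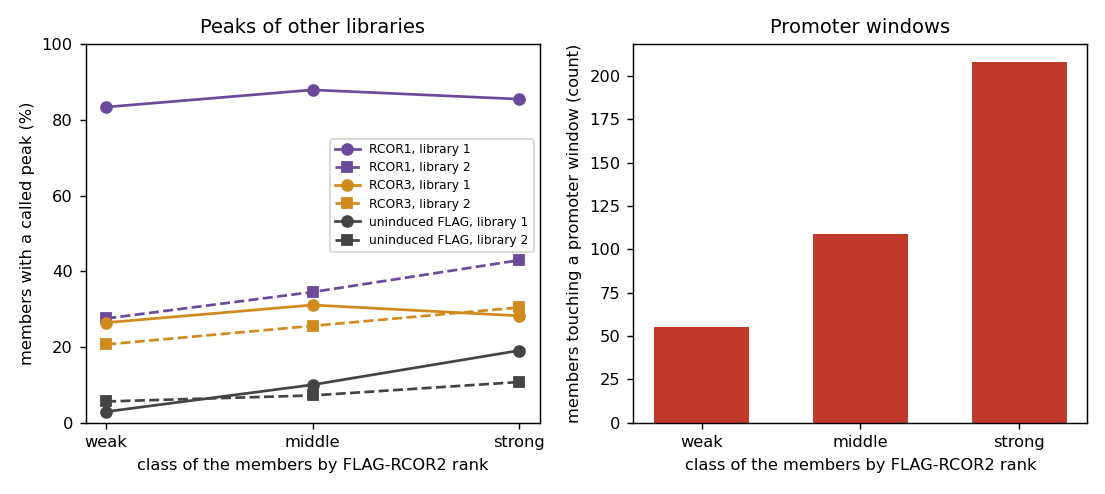
The 2452 regions split by induced RCOR2 rank (x axis): left, share with a called peak of RCOR1, RCOR3 or uninduced FLAG (y axis, %, each library a line); right, number touching a RefSeq promoter window (y axis). Uninduced library 1 stands at 2.94% in the weak class and 19.1% in the strong class, and promoter windows number 55, 109 and 208.

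Peak summits were compared only between peaks touching the same region, which limits how far apart they can lie. Taken from the summit of induced RCOR2 library 1, the summit of library 2 was a median of 69 bp away, RCOR1 summits 106 and 97 bp, and RCOR3 summits 96 and 113 bp. Within 100 bp lay 62% of the summits of RCOR2 library 2, 48.2% and 51.0% of those of RCOR1, and 51.5% and 46.9% of those of RCOR3. In the regions with RCOR2 and LSD1, 58.5% of the summits of RCOR2 library 2 lay within 100 bp. There the shares were 58.5% and 54.9% for RCOR1, and 55.8% and 52.0% for RCOR3. The nearest LSD1 peak was a median of 27374.5 bp away; 121 regions had one within 1 kb, and 667 (27.2%, against 77.1% of all distal RCOR2-low regions) within 10 kb, a count that the choice of regions without LSD1 lowers.

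Many regions that lay away from the outermost gene ends still touched an annotated start. A promoter window of a protein-coding gene was touched by 228 regions (9.30%, interval 8.21 to 10.5), against 63 of the regions with LSD1 (3.13%, interval 2.45 to 3.98) and 2.04% of all distal RCOR2-low regions. These windows belong to 222 genes and are further starts inside the gene's outermost bounds. Windows of long noncoding RNA (lncRNA) genes were touched by 172 regions (7.01%, interval 6.07 to 8.09), against 60 with LSD1 (2.98%, interval 2.32 to 3.82) and 1.98% of all distal RCOR2-low regions. Either kind was touched by 372 regions (15.2%), against 117 with LSD1 (5.81%) and 3.82% of all. The share was 9.95% with distance taken from the ends of every RefSeq gene, and 9.72% with RCOR2 peaks of either induced library. By class of RCOR2 rank the numbers were 55, 109 and 208 from weak to strong, and the regions on windows were wider, with a median of 928.5 bp, against 728 bp for the others. Among regions of 500 to 1000 bp, lncRNA windows were touched by 6.75% without LSD1 and by 2.08% with it.

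The window table holds 22156 windows of 15813 of the 19974 protein-coding genes on the chromosomes used, so starts outside it were not counted. The distal regions touching no window had RCOR3 on 28.9% and 25.6%, against 79.9% and 75.7% of the window-free regions with LSD1. On windows the RCOR3 shares were 26.6% and 25.5%, against 74.4% and 62.4% with LSD1. Uninduced FLAG marked 15.9% and 7.80% of the regions on windows, and 9.76% and 7.88% of the others.

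**Figure D4:**
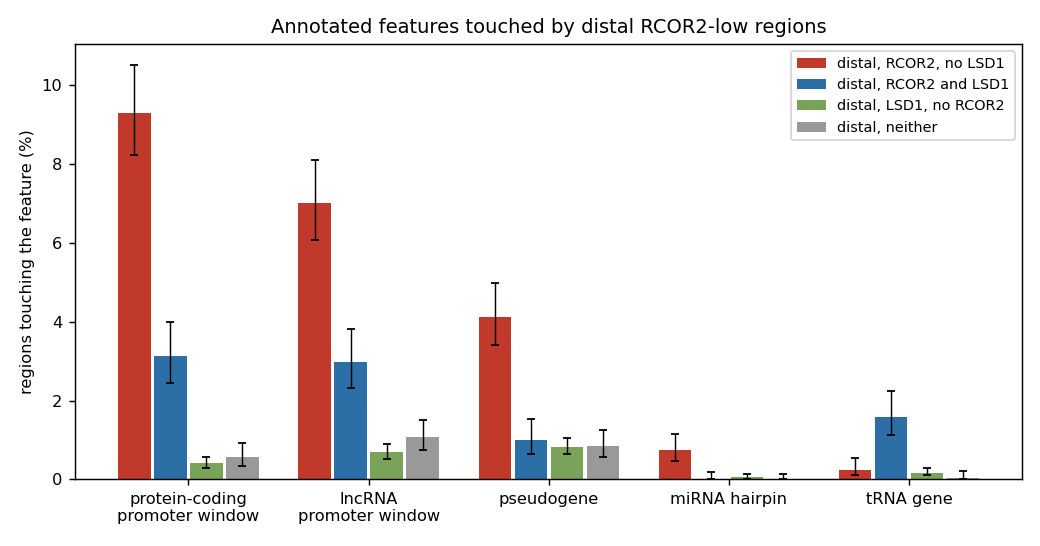
Share of regions (y axis, %) touching annotated features, for 4 sets of distal RCOR2-low regions; bars are shares and lines 95% Wilson intervals. Protein-coding windows stand at 9.30% for RCOR2 without LSD1 and 3.13% with LSD1, and tRNA genes at 0.245% and 1.59%.

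The strongest regions on further protein-coding starts were at LIN28B, LIG4, SV2C, MICAL1, C6orf89 and ADAR. LIN28B, an RNA-binding protein that blocks let-7 maturation and is an oncogene in neuroblastoma, had the region chr6:104940219-104941710 with RCOR2 at 30.4 and 53.7, RCOR1 at 5.37 and 6.83, and in library 2 only RCOR3 at 5.22 and uninduced FLAG at 6.13. LIG4, the DNA ligase of non-homologous end joining, had chr13:108214750-108215749 with RCOR2 at 18.8 and 62.7, RCOR1 at 5.37 and 6.79, uninduced FLAG at 5.44 in library 1 only and no RCOR3 peak. SV2C, a synaptic vesicle protein, had chr5:76082941-76085032 with RCOR2 at 29.9 and 40.4. The lower of the 2 percentile ranks among induced peaks was 97.2 at LIN28B, 93.9 at LIG4 and 93.7 at SV2C. ADAR, which edits adenosine in RNA, had chr1:154607840-154608997 with RCOR2 at 16.1 and 32.0, RCOR1 at 5.92 and 5.38 and no RCOR3 peak.

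The windows touched had a higher GC content than other windows away from gene ends, and one nearer to that of all protein-coding windows. The 276 protein-coding windows on the regions had a median GC content of 64.3%, a median CpG observed over expected ratio of 0.756 and a GGGCGG on either strand in 70.3%. The 78 windows on regions with LSD1 had 55.2%, 0.643 and 42.3%, and the 4096 protein-coding windows over 2 kb from gene ends had 55.7%, 0.397 and 37.8%. All 22035 protein-coding windows of distinct position had 62.3%, 0.737 and 56.3%. For lncRNA the 190 windows on the regions had 62.8%, 0.695 and 56.3%, against 54.3%, 0.453 and 32.5% for the 77 on regions with LSD1 and 46.7%, 0.231 and 15.6% for the 9906 away from gene ends and 50%, 0.286 and 25.6% for all 12833. GGGCGG matches move with GC content, and neither was compared with the other held fixed.

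A further 3 motifs were searched on both strands of the same windows; none holds GGGCGG or its reverse complement, though matches can share bases at their edges. CACGTG, the E-box bound by MYC proteins, was in 9.78% of the protein-coding windows on the regions, against 6.41% with LSD1 and 8.31% of all protein-coding windows. CCGGAA, a core of ETS factor sites, was in 26.1%, against 15.4% and 21.1%. CAGCACC, part of the site of REST, was in 8.33%, against 10.3% and 7.82%. In protein-coding windows over 2 kb from gene ends the shares were 5.83% for CACGTG, 11.9% for CCGGAA and 8.45% for CAGCACC. The shares with LSD1 rest on 5, 12 and 8 of 78 windows, in the same order. For lncRNA windows CAGCACC was in 10.5% on the regions, against 6.49% with LSD1 (5 of 77 windows) and 7.64% of all lncRNA windows. Of lncRNA windows over 2 kb from protein-coding gene ends, 7.14% held it. Matches describe these windows and do not show that a factor was bound.

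MicroRNA hairpins were few but fell mostly on these regions. A hairpin was touched by 18 regions (0.734%, against 0.13% of all distal RCOR2-low regions), which is 18 of the 25 distal RCOR2-low regions that touch one. None of the 2014 regions with LSD1 touched a hairpin, and taking 0 as up to 3 counts allows a share of up to 0.149%. In the strong class of RCOR2 rank there were 14, in the middle class 2 and in the weak class 2. The gene-end regions without LSD1 had 22 (0.733%).

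Beside those in BBC3 and CHD2, the hairpin regions included a microRNA known from the brain. MIR9-1, a microRNA of neural progenitors, lay with the start of its host gene MIR9-1HG in chr1:156419755-156422023, where RCOR2 had 24.7 and 21.5, RCOR1 4.76 and 4.60, and RCOR3 7.03 in library 2 only. MIR3176 in CAPN15, chr16:543215-544993, had RCOR2 at 16.0 and 26.0 and a peak of every other library outside LSD1. MIR4734, chr17:38701681-38703137, had RCOR2 at 14.9 and 24.5 and 1 RCOR1 peak at 4.36. MIR12128 lay in GSE1 and MIR4669 in RXRA, genes with many of the regions.

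The regions of MIR3180-1, MIR3180-2 and MIR3180-3 are uncertain. They lie on chromosome 16 on PKD1 pseudogenes, and RCOR2 had 17.1 and 57.9 at MIR3180-1, 21.0 and 51.6 at MIR3180-2, and 27.1 and 55.3 at MIR3180-3. The MIR3180-1 and MIR3180-3 hairpins are identical in sequence, and the shorter MIR3180-2 hairpin is a stretch of the same sequence. Reads from these copies could thus be shared, and how such reads were placed was not stated in the labels or notes. Pseudogenes were touched by 101 regions (4.12%, interval 3.40 to 4.98), against 20 with LSD1 (0.993%, interval 0.644 to 1.53) and 1.39% of all distal RCOR2-low regions. The part of repeated sequence in these 101 regions was not tested. Transfer RNA genes went the other way, with 6 regions (0.245%), against 32 with LSD1 (1.59%) and 0.316% of all.

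The middle of 1402 regions lay inside a protein-coding gene (57.2%, interval 55.2 to 59.1), against 49.3% of the regions with LSD1 and 51% of all distal RCOR2-low regions. Distal regions with neither protein were nearer, at 54.3% (interval 52.5 to 56.1), and those with LSD1 and no RCOR2 stood at 48.5%. Exons and introns were not analysed here. Chromosome 19 held 245 regions (9.99%), against 2.33% of those with LSD1 and 3.61% of all distal RCOR2-low regions. Over all chromosomes, 2452 of 19281 distal RCOR2-low regions belonged to the set, and on chromosome 19 the share was 35.2%. Chromosomes 9, 16 and 17 followed at 21.1%, 21.1% and 21.3%, and chromosome 4 was lowest at 5.42%. A region of the RCOR2-high list lay within 100 kb of 1722 regions (70.2%), against 48.6% with LSD1 and 48.2% of all. The share was 59.2% for distal regions with neither protein and 34.1% for those with LSD1 and no RCOR2. Within 2 Mb of MYCN, which is amplified in this line, there was 1 region, against 3 with LSD1 (0.104% of all).

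By gene, 2326 regions had a gene that contains them or ends within 100 kb, and 126 had none. The 1692 genes included 1342 with 1 region, 350 with 2 or more and 38 with 5 or more. GSE1, a protein found in LSD1 and histone deacetylase complexes, led with 34 of its 81 distal RCOR2-low regions, against 6 with RCOR2 and LSD1. Genes were ranked by their number of regions, and genome-wide 2452 of 19281 distal RCOR2-low regions belonged to the set. RXRA had 16 of 26, ZFPM1, the GATA cofactor also known as FOG1, 14 of 20, and COL5A1, a fibrillar collagen, 13 of 27. SEPTIN9, a septin of the cytoskeleton, had 12, and CXXC5, KDM4B, RASA3, TSNARE1 and VAV2 had 9 each; KDM4B is a histone H3 lysine 9 demethylase.

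In GSE1, chr16:85169512-85676200, 33 of the 34 regions lay inside the gene, which spans 506689 bp. RCOR2 had a median fold enrichment of 6.64 in library 1 (3.67 to 17.9) and 6.38 in library 2 (3.49 to 22.3). RCOR3 was called in both libraries at 10 of the 34 and uninduced FLAG in either at 4. The strongest by rank, chr16:85303288-85303905, had RCOR2 at 17.9 and 16.4, RCOR1 at 3.69 in library 1 only, and no RCOR3 peak. The GSE1 regions thus ranged from RCOR2 with little else to RCOR2 with both other CoREST proteins, such as chr16:85286884-85287713 with RCOR2 at 11.4 and 9.04, RCOR1 at 11.0 and 4.85 and RCOR3 at 4.94 and 6.79.

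ZFPM1 held the longest run. With regions joined across gaps of at most 12 kb, the 2452 regions formed 2092 runs, of which 250 had 2 or more regions and took 610 of them. Runs were not formed for other sets, so these counts have no background and do not show that the regions cluster more than others. The ZFPM1 run, chr16:88455195-88513751, had 14 regions over 58557 bp, with 2 regions of RCOR2 and LSD1 between them. Shorter runs included those in GSE1 (7 regions over 37553 bp), BAIAP2 (6) and CXXC5 (6). At ZFPM1, RCOR2 medians were 8.85 and 7.71, and 3 of the 14 had RCOR3 in both libraries. RASA3 differed from these, with RCOR2 medians of 13.8 and 11.5 over 9 regions and RCOR3 in both libraries at 5.

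**Figure D5:**
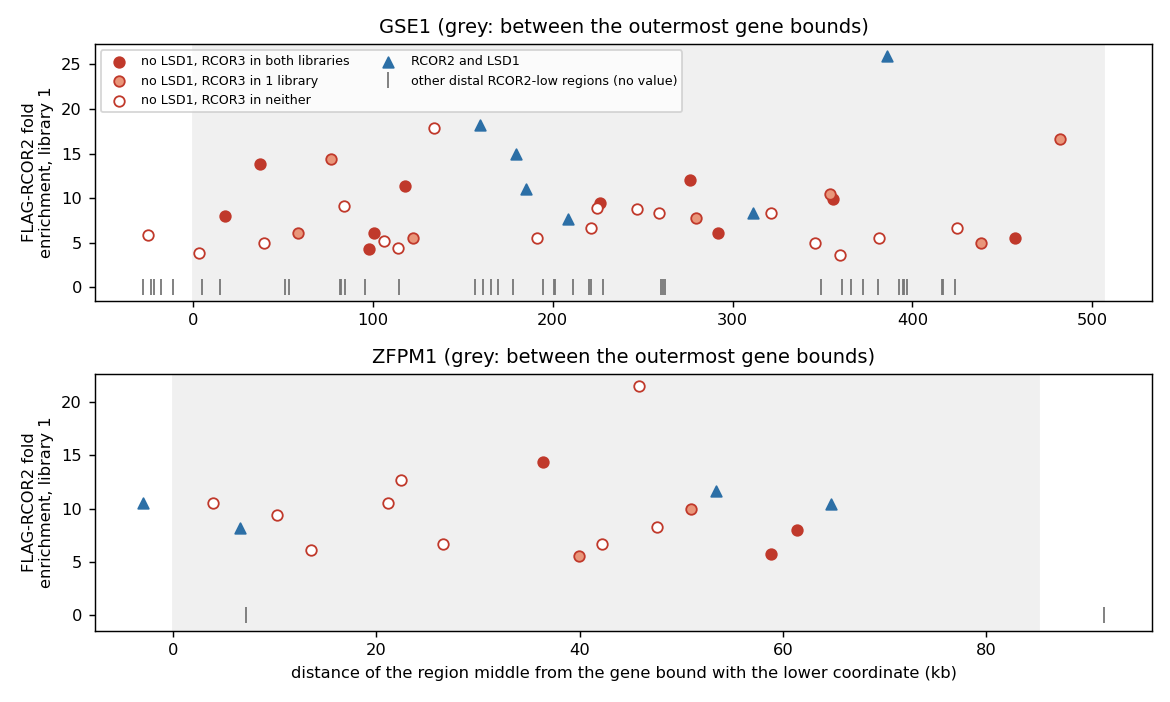
Distal RCOR2-low regions along GSE1 and ZFPM1: distance of each region's middle from the gene bound with the lower coordinate (x axis, kb) and fold enrichment of induced RCOR2 in library 1 (y axis). Circles are regions without LSD1, filled by RCOR3, and triangles have LSD1; GSE1 has 34 circles and 6 triangles, ZFPM1 14 and 4.

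The 5 regions first for RCOR3, by the lower of the 2 percentile ranks, had RCOR2 ranks from 59.8 to 81.0 by the same measure. They lay in COL5A1, SAMD11, RASA3, near MYT1 and in NTNG2. In COL5A1, chr9:134706736-134708959, RCOR3 had 10.3 and 10.4, RCOR1 13.4 and 7.35, and RCOR2 9.96 and 19.1, against 3.89 and 5.19 for FLAG in uninduced cells. In SAMD11, chr1:934956-938674, RCOR3 had 9.16 and 9.72 and RCOR2 33.7 and 14.3, the first of them above the value at BBC3, against 5.70 and 5.20 for FLAG in uninduced cells. Near MYT1, a zinc finger factor of neural differentiation, chr20:64145760-64147348 had RCOR3 at 9.04 and 8.95, RCOR1 at 13.8 and 8.93, RCOR2 at 13.8 and 7.97, and uninduced FLAG at 4.72 in library 2 only. The NTNG2 region, chr9:132181676-132183304, was also first for RCOR1, at 17.8 and 11.0, with RCOR3 at 8.72 and 8.95 and uninduced FLAG at 4.28 in library 1 only. The other RCOR1 leaders lay in RXRA, RASA3, RALGDS and SMTNL2.

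Of 30 adrenergic regulators, 11 had a region, 12 regions in all (0.489%, against 0.742% of all distal RCOR2-low regions and 1.59% of those with LSD1). GATA3, a zinc finger factor of sympathetic development, had the widest of all 2452 regions, chr10:8047711-8052839, with RCOR2 at 29.9 and 30.8, RCOR1 at 9.06 and 3.72 and RCOR3 at 5.74 and 5.97. TFAP2B, an AP-2 factor of neural crest, had chr6:50850218-50850756 with RCOR2 at 12.2 and 28.2 and no other peak. TBX2 had RCOR2 at 8.22 and 17 and a peak of every other library outside LSD1, with RCOR1 at 7.43 and 5.38. KLF13 had 2 regions, and GATA2, LMO1, MEIS2, SOX4, TCF3, ZFHX3 and ZNF536 had 1 each. HAND1, HAND2, ISL1 and TBX3 had none. HAND1 had 9 of its 15 distal RCOR2-low regions with RCOR2 and LSD1, against 2014 of 19281 over all. TBX3 had 1 of 8 with both, HAND2 0 of 1 and ISL1 0 of 2. Of the 26 mesenchymal-state genes, IRF1 and SNAI1 had 1 region each (0.0816%, against 0.114%).

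Genes of the LSD1 and CoREST complex had 36 regions (1.47%, against 0.555%), 34 of them at GSE1. RCOR2 itself had a region inside the gene, chr11:63918790-63921419, with induced FLAG at 26.4 and 18.2, RCOR1 at 8.52 and 5.15, RCOR3 at 5.39 in library 1 only and no uninduced peak. The part of reads from the introduced RCOR2 construct in that region was not tested; the RCOR1 and RCOR3 peaks there came from libraries whose labels name no construct. KDM1A, which encodes LSD1, had none.

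The other lists held few regions and were near or below their background. Noradrenergic transmitter genes had 7 (0.285%, against 0.275%), with 3 nearest to TH, the rate-limiting enzyme of catecholamine synthesis, and 1 each in CYB561 and DDC. The TH regions lay 13739, 18569 and 21195 bp from the gene, and the strongest of them by rank had RCOR2 at 7.19 and 5.85. Axon guidance genes had 14 (0.571%, against 1.3%), with 3 each at the netrin receptors UNC5A and UNC5B. At EFNB2, an ephrin, RCOR2 had 12.2 and 32.4. Synaptic adhesion genes had 8 (0.326%, against 0.674%), 3 of them in NRXN2, a neurexin. Receptor tyrosine kinases had 5 (0.204%, against 0.347%), 2 of them in IGF1R, and ALK had none. Immediate early genes had 4 (0.163%, against 0.124%), 2 each near ARC and IER2. Of the markers of other cell types, Schwann and glial genes had 2 (0.0816%, against 0.0622%), 1 of them in PMP22, liver genes 1 (0.0408%, against 0.0622%), in HNF4A, and keratinocyte genes 1 (0.0408%, against 0.0311%), nearest to KRT17. These counts place regions by position and do not show that a gene is controlled by them.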

How the data were processed

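The submitters' processing notes name BWA 0.7.17, MACS2 and deepTools as tools and GRCh38 as the build. Each deposited list holds the peaks of 1 library. The authors deposited a fold enrichment for each peak, which is a ratio to local background, and a −log10 q-value, with a lowest value of 1.30 (q = 0.05). Control libraries, duplicate handling, placement of reads with several matches and the definition of the RCOR2-low list are stated neither in the labels nor in those notes. The authors' fold enrichments only describe and rank peaks within a list.

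Overlap meant at least 1 shared base. Shares of regions have 95% Wilson intervals, and libraries were compared with exact two-sided tests, in Python 3.11.15 with numpy 2.4.6, pandas 2.3.3 and scipy 1.17.1; the overlap and distance code was tested on simulated data. Gene bounds, promoter windows, hairpins and sequences came from RefSeq tables of GRCh38.p14. A region was given to genes that contain its middle, or to the nearest gene end within 100 kb. Named regions were the 10 highest for RCOR2, the 5 highest each for RCOR3, RCOR1 and uninduced FLAG, the 3 nearest either side of 2 kb, the genes with most regions, the genes of 11 lists, the largest runs, and 6 sequences of noncoding genes; others are said to be chosen after their values were seen, as were the regions on protein-coding windows and the 500 bp windows. Some genes that the rule names are not reported here. The regions and lists were chosen with earlier results of these data known. Numbers of peaks ranged from 10735 (uninduced FLAG) to 79594 (induced FLAG-RCOR2), and read depth is unknown. No column of per-sample values was left out.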

Additional observations from a re-analysis of the deposited data

Results flagged for a closer look

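The strength of called peaks moved opposite ways with LSD1 for different proteins, and this difference between proteins was not tested. Median fold enrichment, regions without LSD1 minus regions with it, was 1.66 and 2 in libraries 1 and 2 of induced RCOR2. It was −4.7 and −1.58 in those of RCOR1, and −1.69 and −1.99 in those of RCOR3. Induced RCOR2 took part in choosing both sets, which share the demand for a peak in each library, so its values are a description. RCOR1 peaks took part in drawing the list, so the RCOR1 values are a description as well. The medians cover only regions with a called peak in that library.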

How the results depend on the processing

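The RCOR3 difference from the regions with LSD1 kept its negative sign under every alternative run, −65.1 to −41.2 percentage points. With peaks above each library's median score, the regions numbered 1483, with RCOR3 on 15.8%, uninduced FLAG on 4.28% and promoter windows at 22%; the uninduced difference turned to −3.85. With peaks of either induced library, the regions numbered 4373, with RCOR3 on 20.4%, uninduced FLAG on 5.77% and windows at 9.72%. Over 10 kb from gene ends there were 1503 regions, 55% of them inside genes. With the ends of every RefSeq gene, a setting that also leaves out regions near ends of noncoding genes, 63.1% lay inside genes and 9.95% touched a window. Without uninduced peaks RCOR3 stood at 24.3%, and in 500 bp around each region's middle, an alternative chosen after seeing the data, at 24.0%. The causes of these changes were not tested.

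Leaving out 1 library at a time, the number of regions ranged from 2452 to 3640, the RCOR3 share from 22.2% to 28.8% and its difference from −52.5 to −42.3. The RCOR1 share ranged from 35% to 85.6%, its difference from −42.8 to −12.9, and RCOR1 minus RCOR3 from 7.91 to 58.5. The uninduced share ranged from 6.63% to 10.7%, and its difference from −6.53 without library 1 to 8.30 without library 2. Genic shares ranged from 55.6% to 57.4% and promoter window shares from 10.9% to 15.2%. With the replicate number as a block, the mean of RCOR1 minus RCOR3 is 33.2 percentage points by construction, so this setting could not change it. Over the regions, peak presence in library 1 minus library 2 had a correlation of 0.0433 between RCOR1 and RCOR3. Regions are not replicates and a shift of a whole library drops out, so this cannot show whether same-numbered libraries pair. The other groups were not checked. Weak sites below the callers' threshold cannot be told apart from absent ones.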
